A study of Mus musculus with 14 samples.

Results

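Trh, Tac2, Lbp, Rnase1, Olfml1, Frem2, Dpp6, Mpzl2 and Acsbg1 are 9 genes, of 19938 measured, that climbed steeply as mouse fibroblasts carried reprogramming factors from day 3 to day 10. They were chosen on these arrays for a large difference between day 10 and day 3, so that difference is described here and not tested. Of a gene's probes annotated with its symbol alone, the one with the highest mean over the 14 arrays was used.

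The cells were MEFs, that is, fibroblasts cultured from mouse embryos. They were infected with retroviruses for Sox2, Klf4 and Oct4 (SKO) or, as a control, with a GFP retrovirus. From day 2 the cells of both kinds grew in embryonic stem cell medium with serum and LIF, either without vitamin C or with 50 µg/ml of it kept in throughout. RNA of the SKO cells was taken at days 3, 4, 5, 6, 8 and 10, which gave 12 arrays, and RNA of the GFP cells at day 3 alone, which gave 2. The labels give no mouse strain, embryo age or number of cultures. Each combination of virus, vitamin C and day was a single array of total RNA from a whole culture, so fewer cells of a type and less RNA per cell cannot be told apart.

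Values are log2 signals of Affymetrix whole-transcript arrays, on which a difference of 1 is a doubling. Signals of different probes are not set against each other, and a gene's place within an array is given as a percentile instead. Because no condition was repeated on a day, the error of each test (SE) comes from how far the days and the treated and untreated arms of 1 time course fail to run in parallel. The p-values therefore say nothing about independent cultures. In limma each SE is moderated: a gene's variance is drawn towards that of all genes, so the SE is not the gene's own spread alone. Array medians lay between 5.19 and 5.28. Pou5f1, which encodes Oct4, read 4.06 and 4.10 on the GFP arrays and 11.2 to 12.6 on the SKO arrays, with transcripts of the virus and of the cell's own gene not told apart. The mean of 10 fibroblast markers (Col1a1, Thy1, Vim and others) was 9.96 to 10.8 on all 14 arrays, so the labelled cell type had its markers throughout.

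The 9 genes come from unrelated families and are not known as members of a shared pathway. Trh encodes the precursor of thyrotropin-releasing hormone, the hypothalamic peptide that makes the pituitary release thyrotropin, and Tac2 encodes the precursor of neurokinin B, a tachykinin peptide. Lbp encodes a secreted carrier of bacterial lipopolysaccharide made mainly by the liver, and Rnase1 a secreted pancreatic-type ribonuclease. Olfml1 encodes a secreted protein with an olfactomedin domain, and Frem2 a large matrix protein of embryonic basement membranes. Dpp6 encodes a membrane protein that accompanies Kv4 potassium channels and lacks peptidase activity, Mpzl2 a cell adhesion molecule of the immunoglobulin family, and Acsbg1 an acyl-CoA synthetase that activates long-chain fatty acids.

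The stretches just before the transcription starts were compared because the 9 genes rose in cells driven by DNA-binding factors. RefSeq windows of assembly GRCm38.p6 were matched by symbol for 7 of the 9 genes, with 9 windows in all since Dpp6 has several starts. The 250 bases before each start were searched on both strands for 6 motifs, and the same was done for all 32851 windows. The octamer of POU factors such as Oct4 (ATGCAAAT) was in 1 of the 9 windows, that of Acsbg1, and in 1.60% of all windows. A SOX motif (CATTGTT) was in 0 of the 9 and in 3.29% of all, and a KLF motif (GGGNGTGG) was in 1 of the 9, that of Olfml1, and in 15.9% of all. Part of the interferon-response element (GAAANNGAA) was in 2 of the 9, those of Olfml1 and Rnase1, and in 7.13% of all. TATAAA was in 1 of the 9, a Dpp6 window, and in 12.4% of all, and the cyclic AMP element (TGACGTCA) was in 0 and in 1.55% of all. The motif letters do not overlap one another in these windows.

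Shown 5′ to 3′ are the windows that hold the octamer, KLF or interferon-type letters, with those letters in capitals, and beside them the window of Trh, the gene with the largest rise, which holds none of the 6. The Acsbg1 window is chr9:54661886-54662135 on the minus strand, with the octamer reading on the opposite strand to the gene, 50 bases before the start. The Olfml1 window is chr7:107567183-107567432 on the plus strand, where the interferon-type letters come 162 bases and the KLF letters 128 bases before the start. The Rnase1 window is chr14:51146768-51147017 on the minus strand, with the interferon-type letters on the opposite strand, 158 bases before the start. The Trh window is chr6:92244651-92244900 on the minus strand.
Acsbg1: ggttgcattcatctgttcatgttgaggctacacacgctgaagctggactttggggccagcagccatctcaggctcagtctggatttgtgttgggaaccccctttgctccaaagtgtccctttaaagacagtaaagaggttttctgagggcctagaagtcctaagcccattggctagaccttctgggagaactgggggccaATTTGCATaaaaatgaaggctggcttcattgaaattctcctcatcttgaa
Olfml1: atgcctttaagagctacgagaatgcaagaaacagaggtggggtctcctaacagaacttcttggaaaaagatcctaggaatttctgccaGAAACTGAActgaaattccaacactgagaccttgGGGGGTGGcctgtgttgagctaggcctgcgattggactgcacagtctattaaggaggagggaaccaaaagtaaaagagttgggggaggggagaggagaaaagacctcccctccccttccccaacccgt
Rnase1: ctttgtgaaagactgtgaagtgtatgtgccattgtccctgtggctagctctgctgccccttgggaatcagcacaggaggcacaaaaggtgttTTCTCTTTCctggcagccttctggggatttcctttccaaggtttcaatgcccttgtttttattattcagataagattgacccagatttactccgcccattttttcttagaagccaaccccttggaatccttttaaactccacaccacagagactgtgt
Trh: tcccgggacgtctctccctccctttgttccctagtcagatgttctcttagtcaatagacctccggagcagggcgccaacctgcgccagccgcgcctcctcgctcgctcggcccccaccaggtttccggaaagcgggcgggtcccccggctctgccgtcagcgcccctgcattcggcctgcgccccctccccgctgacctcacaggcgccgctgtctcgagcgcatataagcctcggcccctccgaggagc
In composition the windows were unlike one another. The Trh window was 68.8% G and C, against 45.6% in Rnase1, 48.4% in Acsbg1, 50.0% in Olfml1 and a median of 52.4% over all windows. No motif was in the windows of more than 2 of the 7 genes. A match says only that the letters are there.

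The rises that chose the genes ran from 3.59 (Mpzl2) to 5.16 (Trh, 35.7-fold) on the log2 scale. Ordered by the mean of both arms, the genes stood at ranks 1, 2, 3, 4, 7, 8, 9, 10 and 12 among 19938. Just inside the choice was Mpzl2. The genes at ranks 5, 6 and 11, Avil (3.77), Fbxo15 (3.74) and Ifi203 (3.61), rose as much and were not in the choice, and just outside it was Clec3b (3.47). The share of all genes higher on day 10 than on day 3 at an adjusted p under 0.05 (limma) was 6.55%.

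**Figure D1:**
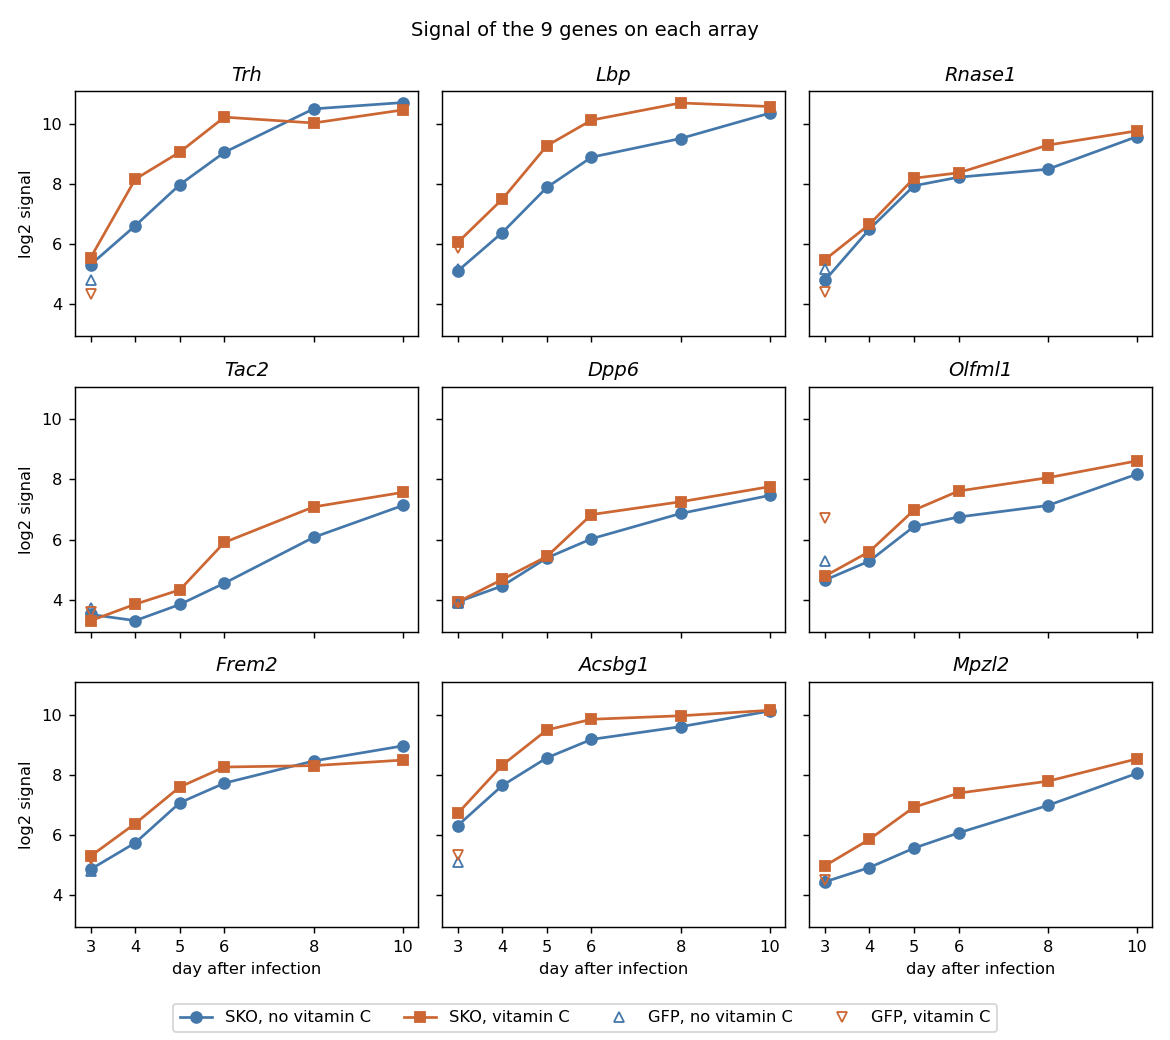
Log2 signal of each of the 9 genes (one panel per gene) by day of culture in SKO cells with and without vitamin C, with the day 3 GFP arrays as separate points; each point is a single array. Most genes leave the GFP level by day 4 or 5, while Tac2 starts late, at 4.55 without vitamin C on day 6 and 7.13 on day 10.

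The arrays of days 4, 5, 6 and 8 were not used to choose the genes, and on them all 9 genes rose. Day 8 was compared with day 4 in a limma fit of these 8 arrays, each day having a treated and an untreated array. All 9 passed as higher, against 1.53% of all genes (306 of 19938), while 0.286% of all genes passed as lower and none of the 9 did. Among the 1297 other genes higher on day 10 than on day 3, 286 (22.1%) passed as higher on day 8 than on day 4. The median difference was 2.33 over the 9 genes, 0.56 over those 1297 and -0.04 over all genes. Days 4 to 8 lie between day 3 and day 10, and the 9 were chosen for larger rises than most of the 1297. Part of the gap to those genes thus follows from the choice. A rise at each step from day 4 to 5, 5 to 6 and 6 to 8, in both arms, was seen in 8 of the 9 genes. The same held for 1.18% of all genes. The exception was Trh, which slipped by 0.19 between days 6 and 8 with vitamin C.

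Among the peptide hormone precursors, Trh had the largest rise and the most uneven one. Without vitamin C its log2 signal on days 3, 4, 5, 6, 8 and 10 was 5.32, 6.62, 7.98, 9.06, 10.51 and 10.72. With vitamin C it was 5.55, 8.17, 9.07, 10.23, 10.04 and 10.47. Treated cells were thus ahead on days 4 to 6 and level or slightly behind afterwards, and by day 10 the probe stood at percentile 99.4 and 99.3 of its arrays. From day 4 to day 8 Trh rose by 2.88 ± 0.37 (SE, 2 arrays a day; 7.36-fold, limma adjusted p = 0.00441). The arms rose unequally, by 3.89 without and 1.87 with vitamin C, and the SE was the largest of the 9.

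Tac2 was the latest of the 9. Without vitamin C it read 3.50, 3.30, 3.84, 4.55, 6.07 and 7.13 on the same days, and with vitamin C 3.30, 3.85, 4.32, 5.90, 7.09 and 7.57. On day 3 the probe lay low on its arrays, at percentiles 15.8 and 12.4, and it had barely moved by day 4. It reached percentiles 76.0 and 82.9 on day 10. The rise between days 4 and 8 was 3.01 ± 0.22 (8.04-fold, adjusted p = 0.000568).

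Lbp, the lipopolysaccharide carrier, rose in both arms from near the GFP level. Without vitamin C it read 5.11, 6.39, 7.89, 8.90, 9.52 and 10.36, and with vitamin C 6.06, 7.50, 9.28, 10.13, 10.70 and 10.58. The treated array was the higher on each day, and the gap nearly closed on day 10. Its rise from day 4 to day 8, 3.17 ± 0.16 (8.98-fold, adjusted p = 3.01e-05), ranked first among all 19938 genes in that comparison.

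Rnase1, the secreted ribonuclease, did most of its rising by day 5, then slowed and rose again later. Without vitamin C it read 4.79, 6.50, 7.95, 8.23, 8.49 and 9.58. With vitamin C it read 5.48, 6.66, 8.20, 8.38, 9.30 and 9.77. Between days 5 and 6 it moved by only 0.28 and 0.18 in the untreated and treated arms. Later it rose by 1.09 from day 8 to day 10 without vitamin C, and by 0.92 from day 6 to day 8 with it. Between days 4 and 8 it rose by 2.32 ± 0.20 (4.99-fold, adjusted p = 0.000756).

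Olfml1, the gene of the secreted olfactomedin-domain protein, started below its level in GFP cells. Without vitamin C it read 4.65, 5.28, 6.44, 6.75, 7.13 and 8.18 in SKO cells, and with vitamin C 4.78, 5.60, 6.98, 7.62, 8.06 and 8.62. The GFP arrays read 5.29 without and 6.70 with vitamin C. SKO cells of day 3 were below both, and SKO cells of day 8 above both. Olfml1 rose from day 4 to day 8 by 2.15 ± 0.19 (4.45-fold, adjusted p = 0.000756).

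Frem2, of the basement membrane, rose steadily without vitamin C and flattened with it. The untreated series was 4.86, 5.74, 7.07, 7.72, 8.46 and 8.96 and the treated series 5.30, 6.38, 7.60, 8.26, 8.31 and 8.49. Treated cells were higher up to day 6 and lower on days 8 and 10. The rise from day 4 to day 8 was 2.33 ± 0.21 (5.02-fold, adjusted p = 0.000761), 2.73 without and 1.93 with vitamin C.

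Dpp6, the channel-associated membrane protein gene, started at the GFP level. Its probe read 3.92, 4.46, 5.39, 6.03, 6.87 and 7.47 without vitamin C and 3.92, 4.67, 5.44, 6.83, 7.26 and 7.76 with it. It rose by 2.50 ± 0.20 from day 4 to day 8 (5.65-fold, adjusted p = 0.000627). The result belongs to this probe. The other Dpp6 probe lay between 2.21 and 3.79 on all 14 arrays and went the other way from day 4 to day 8. It fell from 3.32 to 2.69 without vitamin C and from 3.78 to 2.21 with it. The mean of both probes rose by 0.70 (limma adjusted p = 0.0853).

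Mpzl2, the adhesion molecule gene, kept climbing to the end. Without vitamin C it read 4.43, 4.91, 5.56, 6.07, 6.98 and 8.05, and with vitamin C 4.97, 5.85, 6.92, 7.39, 7.79 and 8.53. The treated array was the higher on every day, and neither arm had levelled off by day 10. Its rise from day 4 to day 8 was 2.00 ± 0.19 (4.00-fold, adjusted p = 0.000914).

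Acsbg1, the acyl-CoA synthetase gene, was already above the GFP arrays on day 3. It read 6.31, 7.64, 8.57, 9.18, 9.60 and 10.12 without vitamin C and 6.72, 8.33, 9.49, 9.85, 9.97 and 10.15 with it, against 5.10 and 5.33 on the GFP arrays. Its steps were largest up to day 5 in both arms. Between days 4 and 8 it rose by 1.80 ± 0.18 (3.48-fold, adjusted p = 0.00109), the smallest rise of the 9.

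Taken as the mean of both arms, the larger part of each rise between days 4 and 8 fell before day 6. From day 4 to day 6 all 9 genes passed, among 70 genes in all. From day 6 to day 8, 0 of the 9 and 0 of all genes passed in limma, with 5 of the 9 and 585 of all genes at an unadjusted p under 0.05. The call for all 9 held without any single array of day 4 or day 8, although the count of all genes called moved between 43 (without the treated array of day 4) and 646 (without the untreated array of day 8), from 363.

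**Figure D2:**
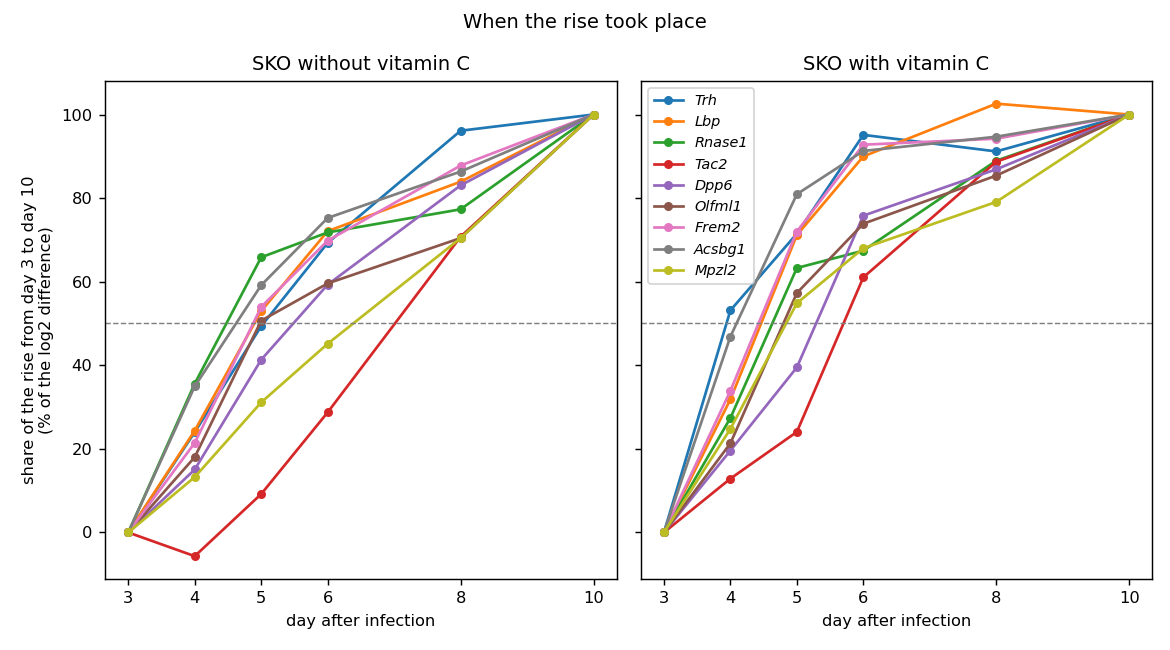
Share of each gene's own rise from day 3 to day 10 (percent, y axis) reached on each day (x axis), with one panel for untreated and one for treated SKO cells. Untreated Tac2 had 28.7% and Mpzl2 45.2% of their rise by day 6, against 75.3% for Acsbg1.

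The genes differed in when they rose. The day on which a gene crossed the midpoint of its own rise, read by straight lines between days, was 4.48 for Rnase1, 4.62 for Acsbg1, 4.88 for Frem2, 4.90 for Lbp and 4.98 for Olfml1 in untreated cells. Trh followed at 5.03 and Dpp6 at 5.48, and Mpzl2 (6.38) and Tac2 (7.01) came last. These are single courses with no error, so neighbours in this order are not told apart. With vitamin C the midpoint was earlier for 8 of the 9 genes, by the widest margins for Mpzl2 (4.84), Tac2 (5.70) and Trh (3.94). Rnase1 was the exception, at 4.63. The share of all genes with an earlier midpoint was not counted. Each midpoint also depends on the full rise of its own arm, from day 3 to day 10. With vitamin C that rise was smaller for Frem2 (3.20 against 4.11) and larger for Tac2 (4.27 against 3.63).

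SKO cells were then compared with GFP cells, to place the genes against cells that had the control virus. GFP cells were taken on day 3 only, so virus and day differ together. The comparisons of day 4 and of day 8 share the GFP arrays, and they share the SKO arrays with the comparison of day 8 with day 4, so each is given on its own.

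By day 4, 5 of the 9 genes were higher than in GFP cells (limma, 10 arrays), against 4.27% of all genes. Trh read 4.82 and 4.33 on the GFP arrays and was 2.82 ± 0.42 higher on day 4 (7.04-fold, adjusted p = 0.000975). Acsbg1 was 2.77 ± 0.19 higher (6.81-fold, adjusted p = 2.44e-06). Rnase1, at 5.16 and 4.42 in GFP cells, was 1.79 ± 0.27 higher (3.45-fold, adjusted p = 0.00117). For these genes both SKO arrays of day 4 lay above both GFP arrays, and the same held for Lbp, Frem2, Mpzl2 and Dpp6. The share of all genes for which this held was not counted. Lbp, at 5.17 and 5.88 in GFP cells, was 1.42 ± 0.19 higher (2.68-fold, adjusted p = 0.00041), and Frem2, at 4.80 and 5.20 in GFP cells, was 1.06 ± 0.20 higher (2.08-fold, adjusted p = 0.00585). The Frem2 call was lost without either GFP array (adjusted p = 0.0643 and 0.0532).

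The other 4 genes did not pass on day 4. Mpzl2 read 4.48 and 4.50 in GFP cells and differed by 0.89 ± 0.27 (adjusted p = 0.0679), which passed without the untreated GFP array (1.43, adjusted p = 0.00699). Dpp6 read 3.89 and 3.88 and differed by 0.68 ± 0.20 (adjusted p = 0.068). Tac2 read 3.71 and 3.57 and differed by -0.07 ± 0.27 (adjusted p = 0.954), a sign that turned without the untreated GFP array (0.42). Olfml1 differed by -0.55 ± 0.23 (adjusted p = 0.222).

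By day 8 all 9 genes were higher than in GFP cells, against 7.41% of all genes. The largest difference was again that of Trh, 5.70 ± 0.42 (51.9-fold, adjusted p = 1.4e-06). Lbp was 4.59 higher (24.0-fold, adjusted p = 8.04e-09) and Acsbg1 4.57 (23.7-fold, adjusted p = 9.47e-09). Rnase1 (17.2-fold), Frem2 (10.4-fold), Dpp6 (9.07-fold), Tac2 (7.65-fold) and Mpzl2 (7.42-fold) lay between. Olfml1 was the least raised, by 1.60 ± 0.23 (3.04-fold, adjusted p = 0.00036).

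**Figure D3:**
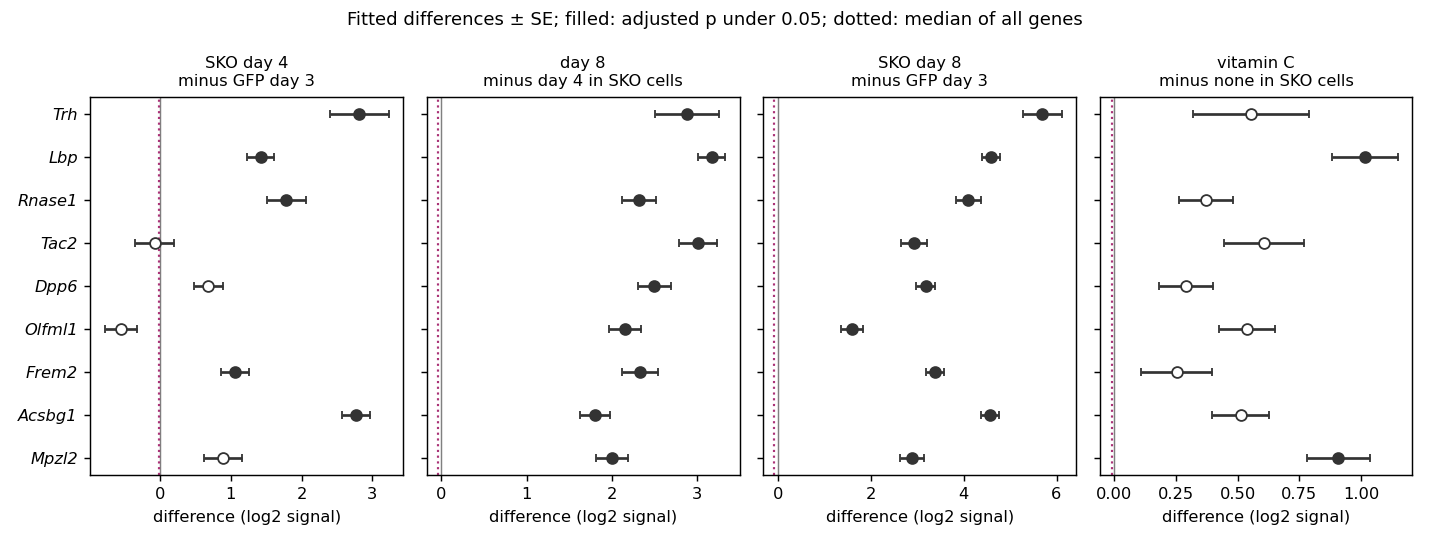
Log2 differences of the 9 genes with standard errors, one panel per comparison, from left to right SKO day 4 minus GFP day 3, day 8 minus day 4 in SKO cells, SKO day 8 minus GFP day 3, and vitamin C minus none in SKO cells; filled points have an adjusted p under 0.05 and the dotted line is the median of all genes. All 9 are positive and past the threshold in the day 8 panels, 5 in the day 4 panel and 2 (Lbp and Mpzl2) in the vitamin C panel.

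Lbp and Mpzl2 were higher with vitamin C in SKO cells, alone among the 9 genes in passing the test. The 6 treated SKO arrays were compared with the 6 untreated ones of the same days in a limma fit with the day as a factor. Lbp was higher with vitamin C by 1.02 ± 0.13 (moderated SE, 6 day pairs, 2.02-fold, adjusted p = 0.00831) and higher on 6 of 6 days. Mpzl2 was higher by 0.91 ± 0.13 (1.88-fold, adjusted p = 0.0108), also on 6 of 6 days. The SD of the 6 daily differences was 0.41 for Lbp and 0.38 for Mpzl2. The background for this call is 0.642% of all genes higher (128), and of the 1297 other genes that rose from day 3 to day 10 it was 93, or 7.17%. Both calls were lost without day 6 (Lbp 0.97 and Mpzl2 0.82, adjusted p = 0.0554 for each, with 6 of the 9 genes at an unadjusted p under 0.05). Over all alternatives the adjusted p went from 0.000807 to 1 for Lbp and from 0.00197 to 1 for Mpzl2, the highest being from a fit with no day term.

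The other 7 genes did not pass. Olfml1 differed by 0.54 ± 0.11 (adjusted p = 0.0518) and Acsbg1 by 0.51 ± 0.11 (adjusted p = 0.0655), each positive on 6 of 6 days; both passed with an intensity trend (adjusted p = 0.0173 and 0.0149). Rnase1 was also positive on 6 of 6 days, at 0.37 ± 0.11 (adjusted p = 0.169). Being higher with vitamin C on all 6 days was thus seen in 5 of the 9 genes and in 3.90% of all genes. Tac2 differed by 0.61 ± 0.16 (adjusted p = 0.127, and 0.0246 without day 3). Trh differed by 0.55 ± 0.24 (adjusted p = 0.386), Dpp6 by 0.29 ± 0.11 (adjusted p = 0.314) and Frem2 by 0.25 ± 0.14 (adjusted p = 0.552). The median difference of the 9 genes was 0.54, against 0.14 for the 1297 other genes that rose and -0.01 for all genes.

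Day by day the difference was widest in the middle of the course for most of the genes. For days 3, 4, 5, 6, 8 and 10 in turn, the median of the 9 differences was 0.41, 0.64, 0.54, 0.87, 0.80 and 0.22. On days 4, 5 and 6 all 9 genes were higher in treated cells, and on days 3, 8 and 10, 7 of the 9 were. Between 46.3% and 51.4% of all genes were higher in treated cells on a given day. Of the 1297 other genes that rose from day 3 to day 10, 963 (74.2%) had a positive difference as the mean of the 6 days.

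Trh and Frem2 changed sign late. The Trh difference was 0.23, 1.55, 1.08, 1.17, -0.47 and -0.25 on days 3, 4, 5, 6, 8 and 10. That of Frem2 was 0.44, 0.64, 0.52, 0.54, -0.16 and -0.47. For Mpzl2 it was 0.53, 0.94, 1.36, 1.32, 0.81 and 0.48, and for Lbp 0.95, 1.11, 1.39, 1.23, 1.18 and 0.22, without a change of sign. Tac2 had its widest gap on day 6 (1.36) and was lower in treated cells on day 3 (-0.21). Whether the difference changed with time was tested as a slope per day. In limma 0 of the 9 genes passed, against 0.0351% of all genes (7), with Trh (-0.20 ± 0.08 per day, adjusted p = 0.583) and Frem2 (-0.16 ± 0.04, adjusted p = 0.303) at an unadjusted p under 0.05. The late change of sign is thus a description of single arrays.

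**Figure D4:**
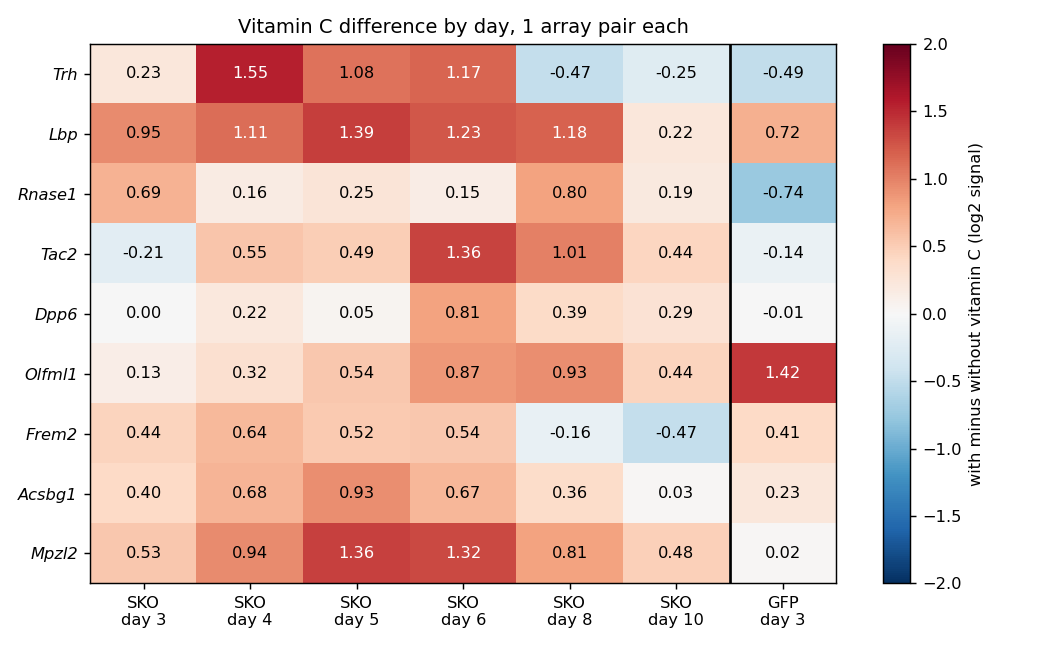
Difference between treated and untreated cells (log2 signal, treated minus untreated) for each of the 9 genes in SKO cells on each day and in GFP cells on day 3, as a colour grid with the values written in. Lbp and Mpzl2 are positive throughout in SKO cells, and Trh and Frem2 are negative on days 8 and 10.

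In GFP cells of day 3 the same difference rests on a single pair of arrays. It was 1.42 for Olfml1, 0.72 for Lbp, 0.41 for Frem2, 0.23 for Acsbg1, 0.02 for Mpzl2, -0.01 for Dpp6, -0.14 for Tac2, -0.49 for Trh and -0.74 for Rnase1. The 9 genes did not share a direction there.

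Interferon response genes moved with vitamin C on the same arrays. Of 8 measured, 6 were higher with vitamin C (Ifit3, Oas2, Oasl2, Irf7, Gbp3 and Mx2), against 0.642% of all genes. The mean log2 signal of the 8 was 4.52 to 6.41 in untreated and 4.64 to 8.02 in treated SKO cells, with 5.16 and 7.28 on the GFP arrays. On that GFP pair, Olfml1 differed by 1.42, Lbp by 0.72 and Mpzl2 by 0.02. The part of the interferon response in the differences of the 9 genes was not tested.

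Some genes related to the 9 also changed, in both directions. Of 94 measured relatives, receptors, processing enzymes and binding partners (of 106 listed), 12 (12.8%) were higher on day 10 than on day 3 (limma), against 6.55% of all genes. A further 7 (7.45%) were lower, against 5.64% of all genes. Between days 4 and 8, 6 (6.38%) rose, against 1.53% of all genes, and none fell, against 0.286%. Whether these shares differ from those of all genes was not tested.

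For Trh, 1 of 11 measured relatives was higher and 1 lower. Pam, which amidates peptide hormones, rose by 0.63 (1.55-fold, adjusted p = 0.0253), and Cpe, a carboxypeptidase that trims prohormones, fell by 0.80 (1.74-fold, adjusted p = 0.0116). The receptor gene Trhr (0.10) and Trhde (0.20), whose product degrades the hormone, did not pass. For Tac2 none of 9 passed, the largest difference being that of its receptor gene Tacr3 (-0.42, adjusted p = 0.216). Tacr3 was lower with vitamin C, by 0.76 (1.70-fold, adjusted p = 0.0123).

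For Lbp, 2 of 15 were higher. Saa3, an acute-phase gene, rose 8.03-fold (adjusted p = 0.000841) and Pltp, of the same lipid-transfer family as Lbp, 1.80-fold (adjusted p = 0.016). The genes of the lipopolysaccharide receptor complex, Tlr4 (-0.06), Cd14 (0.14) and Ly96 (-0.05), did not pass. For Rnase1, 0 of 9 were higher, and the ribonucleases Ang4 (1.49-fold, adjusted p = 0.0363) and Ang2 (1.46-fold, adjusted p = 0.0474) fell; genes of this family are alike in sequence, and how far their probes share signal is not known here.

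For Dpp6, 3 of 13 were higher and 1 lower. Dpp4, a dipeptidyl peptidase gene, rose 5.59-fold (adjusted p = 4.64e-05) and Dpp10, the closest relative of Dpp6, 4.67-fold (adjusted p = 2.44e-05). Kcnip4, another accessory subunit of Kv4 channels, rose 1.77-fold (adjusted p = 0.0146), and Dpp9 fell 1.66-fold (adjusted p = 0.0218). The Kv4 channel genes Kcnd1, Kcnd2 and Kcnd3 did not pass. For Olfml1, Olfml2a rose 1.67-fold (adjusted p = 0.0318) and Olfml2b fell 1.95-fold (adjusted p = 0.00659), among 8.

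For Frem2, 2 of 9 were higher and 1 lower. Frem1, which encodes a partner of Frem2 in the basement membrane, rose 2.84-fold (adjusted p = 0.000378), and Npnt, an integrin ligand, 1.93-fold (adjusted p = 0.0266). Itgb1 fell 1.44-fold (adjusted p = 0.0302), and Fras1, which encodes the other partner, did not pass (-0.39, adjusted p = 0.153). For Acsbg1, 1 of 11 was higher, the fatty acid transporter gene Slc27a1 (1.88-fold, adjusted p = 0.0166). For Mpzl2, 2 of 9 were higher and 1 lower: the junction genes Jam2 (4.15-fold, adjusted p = 3.1e-05) and Jam3 (1.56-fold, adjusted p = 0.0205) rose and Clmp fell (1.70-fold, adjusted p = 0.0077). Mpzl3, its neighbour and relative, differed by 0.01.

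The 6 relatives that passed between days 4 and 8 were Saa3 (1.79, adjusted p = 0.0328), Dpp10 (1.44, adjusted p = 0.00389), Dpp4 (1.37, adjusted p = 0.00965), Jam2 (1.18, adjusted p = 0.00618), Olfml2a (1.07, adjusted p = 0.0251) and Frem1 (0.97, adjusted p = 0.0478). None of the 6 rose as far as the gene it is related to.

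**Figure D5:**
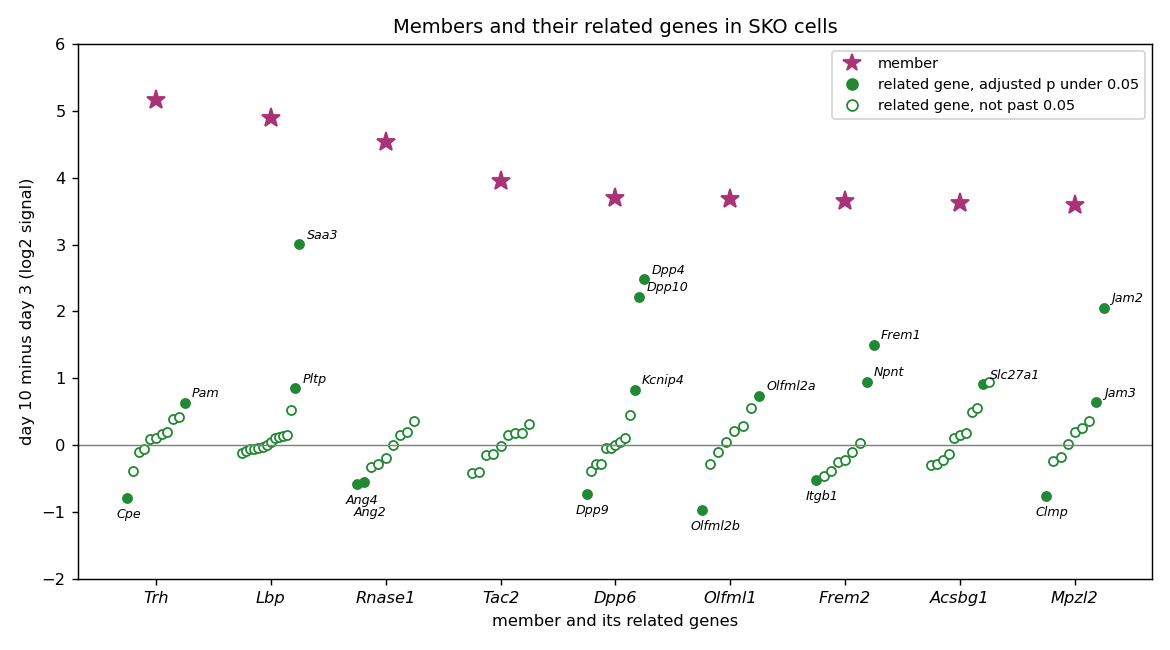
Difference between day 10 and day 3 in SKO cells (log2 signal, mean of both arms) for each of the 9 genes (stars) and its listed relatives (circles, filled where limma's adjusted p was under 0.05). Every relative lies below its own star, with Saa3 (3.01), Dpp4 (2.48), Dpp10 (2.22) and Jam2 (2.05) the highest. That order follows from the choice of the 9 genes for large values of this same difference.

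Neighbours on the chromosome were looked at in the same way, by a rule chosen after values were seen. Of the 18 nearest measured protein-coding genes on either side (gene order of assembly GRCm38.p6), 2 were higher on day 10 than on day 3 and 0 lower. They were Ppfibp2, next to Olfml1 (1.97, limma adjusted p = 9.5e-05), and Myo1a, next to Tac2 (1.69, adjusted p = 0.00217). Of all genes, 6.55% passed as higher and 5.64% as lower in this comparison. Bpi, a relative that lies next to Lbp, differed by -0.03, and Rnase6 and Rnase2b, on either side of Rnase1, by -0.20 and -0.15, none past the threshold.

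The 9 genes ran alike over the 14 arrays, as genes chosen for 1 shared rise must. The median Pearson r over their 36 pairs was 0.943, from 0.774 (Olfml1 and Acsbg1) to 0.984 (Lbp and Frem2). All points share the time course, so these values are descriptions. Among 1341 other genes with an SD of at least 0.5, the most alike were Rnf39 (0.987), Fry and Il34 for Trh, Syt10 (0.979), Erich3 and Epcam for Tac2, and Plce1 (0.998), Steap4 and Pde9a for Lbp. For Rnase1 they were Sptssb (0.982), Vnn3 and Pllp, for Olfml1 Selenop (0.988), Tnn and Gdpd2, and for Frem2 Pde9a (0.988), Tril and Steap4. For Dpp6 they were Pde9a (0.986), Tril and Chrdl1, for Mpzl2 Enpp3 (0.984), Apobec1 and Lama3, and for Acsbg1 Glb1l2 (0.990), Nt5e and Myh2. Pde9a was thus among the closest to Lbp, Frem2 and Dpp6.

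Markers of other cell types moved on some of the same arrays. From day 4 to day 8, 3 of 10 epithelial markers were higher (Epcam, Ocln and Spint2), 3 of 13 pluripotency markers (Tfcp2l1, Fbxo15 and L1td1), 3 of 8 interferon response genes, 1 of 13 macrophage markers (Lyz2) and 1 of 6 endothelial markers (Tek), against 1.53% of all genes. Of 10 neural, 7 neuroendocrine and 10 fibroblast markers 0 passed in either direction between those days. From day 3 to day 10 the mean log2 signal of the epithelial list went from 4.73 to 5.78 without and from 4.76 to 6.10 with vitamin C. That of the pluripotency list went from 4.53 to 5.29 without and from 4.56 to 5.93 with vitamin C. The macrophage mean in untreated SKO cells of days 4, 8 and 10 was 4.40, 4.70 and 5.72, and in treated ones 4.38, 5.01 and 5.49, against 4.56 and 4.84 on the GFP arrays. From day 4 to day 8 Lyz2 was 2.72-fold higher, and Mrc1 (2.12-fold) and Mpeg1 (1.97-fold) did not pass. On day 10, 9 of the 13 macrophage markers were higher than on day 3, against 6.55% of all genes. So were 8 of 8 interferon response genes, 7 of 13 pluripotency, 6 of 10 epithelial, 1 of 10 neural and 1 of 6 endothelial markers. In the same comparison 4 of 10 neural, 2 of 10 fibroblast and 1 of 7 neuroendocrine markers were lower, against 5.64% of all genes. The neuroendocrine mean lay between 5.09 and 5.40 in SKO cells. The part of any of these cell types, or of the interferon response, in the rise of the 9 genes was not tested.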

How the data were processed

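The authors deposited a table of log2 values, with a row for each probe. RMA and Partek are the tools named, per the submitters' processing notes, without versions. The log2 scale was read from the values. RMA quantile-normalizes arrays and compresses differences of weak genes, so low folds can be understated. Of 28853 probes, the platform annotation gave 21789 a single symbol, 1621 several and 5443 none; 19856 of the 19938 genes were found in RefSeq (GRCm38.p6).

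Tests used limma 3.58.1 (lmFit, eBayes) in R 4.3.3 over all genes with Benjamini-Hochberg adjustment, two-sided, and a threshold of 0.05, checked on data made with known answers. Residual degrees of freedom were 3 for day 8 against day 4, 5 for vitamin C, and 4 for the slope and the GFP comparisons. Named were the 9 genes, up to 4 called genes per list of relatives (else the largest difference), and the 3 genes most correlated with each; clones, predicted genes, small RNAs, histones and olfactory receptors were passed over. Members and lists were chosen with earlier results of these data known. Day 10 against day 3 used the vitamin C fit. Other settings tried were normalization, filter, variance model, probe summary and left-out days; those leaving out arrays of days 4 and 8 or the GFP arrays were chosen after seeing the data. Figures used matplotlib 3.10.9 in Python 3.11.15.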

Additional observations from a re-analysis of the deposited data

Results flagged for a closer look

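Rnase1 moved in opposite directions with vitamin C in the 2 kinds of cells. The treated GFP array was lower than the untreated one (-0.74 on the log2 scale, 4.42 against 5.16), whereas the difference was positive on all 6 days in SKO cells, from 0.15 to 0.80. GFP cells had 1 pair of arrays, and the difference between GFP and SKO cells was not tested.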

How the results depend on the processing

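The rise of the 9 genes from day 4 to day 8 was called for 9 under each setting tried except the mean of the probes (8) and day 8 against day 6 (0, with 0 of all genes). All genes called in that comparison, 363 as reported, were 70 for day 6 against day 4, 230 and 43 without the untreated and the treated array of day 4, and 646 and 150 without those of day 8. The number of the 9 called with vitamin C, 2 as reported, was 4 without the 6646 genes of lowest signal, 4 with an intensity trend, 4 without day 3, 0 without day 6 and 0 with no day term. All genes called there, 186, were 364 with the trend, 66, 23, 46 and 71 without day 5, 6, 8 or 10, and 4 with no day term, which removes the pairing of arrays by day. Against GFP cells, leaving out the treated GFP array took all genes called from 1354 to 616 (day 4) and from 2466 to 1286 (day 8), and leaving out the untreated one turned Tac2 on day 4 to 0.42. For the slope, all genes called went from 7 to 23 without those 6646 and to 35 with the trend. Slopes that passed in no setting changed sign for Lbp (0.0403), Rnase1 (0.0414) and Mpzl2 (0.0502) without day 10 and for Dpp6 (-0.0198) with the mean of its probes. Of the relatives, 19 were called on day 10 against day 3 and 2 against day 5 (all genes 2430 and 345). Except where fewer arrays entered the fit, the cause was not tested. No paired analysis by replicate was possible because each condition and day has 1 array. Signals of Tac2 and Dpp6 near the bottom of the range on day 3 limit how far their folds can be read.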
